A study of Bos taurus with 3 samples.

Results

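Heat shock and chaperone genes were followed in single epithelial cells of the cow rumen. The set held 10 named genes, and all 10 were found among the 19533 genes of the count table. They were *HSPA1A*, *HSPA8*, *HSPA5*, *HSPH1*, *HSP90AA1*, *DNAJA1*, *DNAJB1*, *BAG3*, *HSPB1* and *CRYAB*. The genes were chosen by name, with earlier results of these data known. They were compared between cells with and without a transcript of *DLK2*, *TM4SF1*, *GJA1* or *FOSB*, so that each of the 4 marker genes set a pair of cell states.

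Epithelium was taken from the ventral sac of the rumen of 3 adult lactating Holstein dairy cows, with 1 library per cow, no treatment and no second condition. All tissue was stripped of its muscle layer. It was freed into single cells by warm EDTA, trypsin and a mixture of collagenases, dispase, hyaluronidase and DNase. These steps were shared by every cell of every state, but cells may respond to them unequally, which was not tested. With no sample handled otherwise, a response to these steps cannot be told apart from a state present in the tissue. The 3′ droplet chemistry of 10× Genomics labelled every transcript it caught with its own short tag, counted as a UMI (unique molecular identifier), and the authors kept 20728 epithelial cells after their filters. Cow 1 had 3369 cells, cow 2 had 7401 and cow 3 had 9958, with 38912809, 94856658 and 104189434 UMIs in total.

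Chaperones bind unfolded protein chains and help them to fold, to be repaired or to be passed on for degradation. HSP70 proteins such as *HSPA1A*, *HSPA8* and *HSPA5* hold a client while ATP is split, J-domain proteins such as *DNAJA1* and *DNAJB1* bring clients and start that step, and nucleotide exchange factors such as *HSPH1* and *BAG3* end it. Small heat shock proteins such as *HSPB1* and *CRYAB* hold unfolded chains without ATP. Many of these genes are driven by the heat shock factor *HSF1*, while *HSPA5* is the main HSP70 of the endoplasmic reticulum and is raised by the unfolded protein response.

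The 7 keratinocyte markers, such as the basal keratins *KRT5* and *KRT14*, added up to 113 to 181 UMIs per 10000 UMIs over the 3 cows, which fitted the epithelial label. The 4 fibroblast markers found in the table, of 5 listed, held 12 UMIs in all cells together, the 5 immune markers 1851, the 4 endothelial markers 589 and the 4 smooth muscle markers 258, with *MS4A1* at 0. Summed per cow and state, none of these 4 lists passed 0.134 UMIs per 10000. Of all cells, 70 (0.338%) carried a barcode sequence that was also found in another cow. Mitochondrial UMIs made up a median of 17.2%, 10.8% and 12.4% of a cell in cows 1, 2 and 3.

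Levels are given as UMIs of a gene per 10000 UMIs, in all cells of a cow or of a state. The values count captured 3′ ends and are not scaled by gene length, so they are compared between cells for 1 gene and not between genes. Among the HSP70 proteins of the cytosol, the stress-inducible *HSPA1A* stood at 14.8 in cow 1, 9.54 in cow 2 and 7.04 in cow 3. It belongs to a group of near-identical copies, and reads that fit several of them make its count uncertain. *HSPA8*, the form that cells make at all times, stood at 5.40, 4.58 and 5.64. *HSPA5* stood at 2.56, 2.25 and 0.888. *HSPA1A* and *HSPA5* were thus highest in cow 1 and lowest in cow 3, and *HSPA8* was highest in cow 3.

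*HSPH1*, an HSP110 protein, stood at 0.928 in cow 1 and at 0.337 and 0.284 in cows 2 and 3. *BAG3*, which links HSP70 to autophagy, stood at 0.355, 0.335 and 0.180. The J-domain gene *DNAJB1* stood at 2.75, 2.12 and 1.03, falling in the same order of cows as *HSPA1A*. *DNAJA1* was instead highest in cow 2, with 0.613, 1.15 and 0.723.

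*HSP90AA1*, the inducible HSP90 of the cytosol, varied least between cows, with 8.79, 9.28 and 8.69. *HSPB1* stood at 14.6, 13.1 and 14.2. *CRYAB*, also known from the eye lens and from muscle, stood at 1.60, 1.15 and 0.557. The ratio of the highest to the lowest cow was 1.07 for *HSP90AA1*, 1.11 for *HSPB1* and 1.23 for *HSPA8*, and lay between 1.88 and 3.26 for the other 7 genes. The cows did not differ in any labelled condition, so these differences between animals were not tested.

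**Figure D1:**
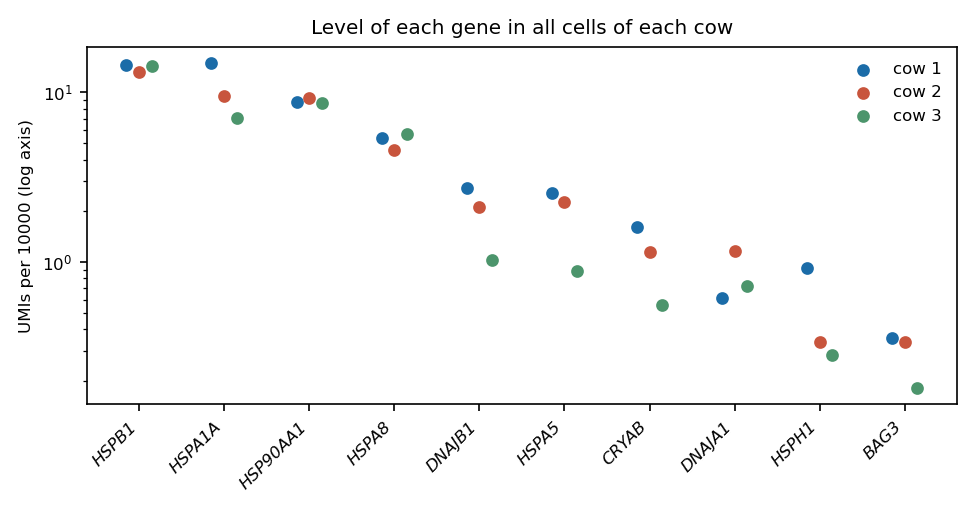
Level of the 10 genes in all cells of each cow, as UMIs of the gene per 10000 UMIs on a log axis, with 1 point per cow and genes ordered by their mean. The points of *HSPB1*, *HSP90AA1* and *HSPA8* lie close together, while *HSPH1*, *CRYAB* and *HSPA5* run from low values in cow 3 to high values in cow 1.

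A cell was taken as positive for a marker with at least 1 UMI of it. *DLK2* encodes a membrane protein related to Notch ligands, and *DLK2* was found in 42.2%, 51.5% and 26.1% of the cells of cows 1, 2 and 3. *TM4SF1*, a membrane protein of the tetraspanin type, was found in 25.9%, 59.2% and 15.7%. *GJA1*, a connexin of gap junctions, was found in 22.1%, 8.8% and 7.0%. *FOSB*, an immediate-early gene whose product is a part of the AP-1 transcription factor, was found in 59.8%, 75.2% and 19.0%. These shares are of cells with a captured UMI, and free RNA in the droplets can add to them.

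The states overlapped and differed in depth. *FOSB* was found in 76.8%, 84.1% and 34.6% of the *TM4SF1*-positive cells of the 3 cows, and in 53.8%, 62.3% and 16.1% of the *TM4SF1*-negative cells. *GJA1*-positive cells had medians of 16150, 17932.5 and 13658.5 UMIs per cell, against 9290, 11541 and 9533.5 in *GJA1*-negative cells. *TM4SF1*-positive cells were also deeper than negative cells in each cow, and *DLK2*-positive cells were shallower in each cow.

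UMIs were summed per cow and state, which gave 6 sums per marker, and tested by the edgeR quasi-likelihood test with the cow as a term and Benjamini-Hochberg adjustment over all genes tested. The test scales each sum by the TMM method, while the levels use the UMI total, so fold changes and levels can differ. A gene was called higher or lower where the log2 fold change was over 0.25 in size with an adjusted p under 0.05. The SE of a log2 fold change is its size over the square root of the F statistic of that test. The test shares information on variance between genes, so this SE is not the spread of the 3 cows. The p-values rest on that shared variance too, and small ones do not measure agreement among the 3 cows alone. For *HSPA1A* with *GJA1*, the log2 differences of cows 1, 2 and 3 were -0.21, 0.62 and 0.038, beside an SE of 0.11. The term for the cow compares both states of the same animal, and no gene of the set was called in any comparison without it. The smallest adjusted p among the 10 genes was then 0.92 for *DLK2*, 1.00 for *TM4SF1*, 0.10 for *GJA1* and 1.00 for *FOSB*, while the sign of each log2 fold change was unchanged for 10 of 10 genes with each marker.

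**Figure D2:**
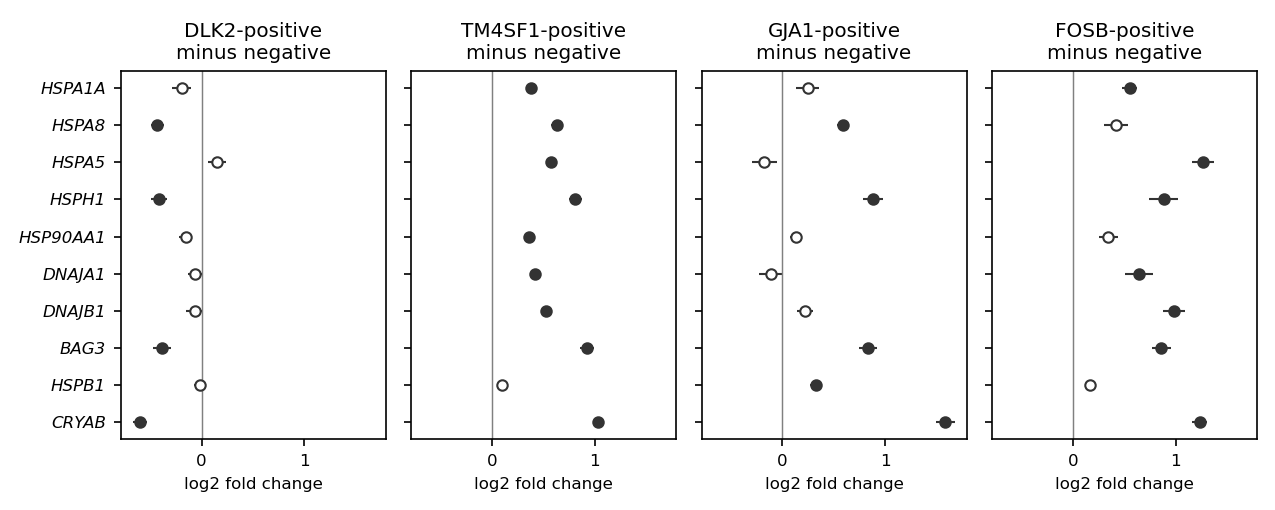
Difference of each gene between marker-positive and marker-negative cells, as the log2 fold change with the standard error of the edgeR fit, for the 4 markers. Filled points passed the adjusted p of 0.05 and the log2 fold change of 0.25, which was the case for 4 genes with *DLK2*, all lower, and for 9, 5 and 7 genes with *TM4SF1*, *GJA1* and *FOSB*, all higher.

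*FOSB*-positive cells had more transcripts of 7 of the 10 genes, led by *HSPA5* and *CRYAB*, and none of the 10 was called lower. Of all 11299 genes tested, 2.96% were called higher and 0.779% lower. The median log2 fold change of the 10 genes was 0.75, against -0.00 over all genes tested. The values of the positive and negative cells did not overlap over the 3 cows for 5 of the 10 genes, which were *HSPA5*, *DNAJA1*, *DNAJB1*, *BAG3* and *CRYAB*, against 3.18% of the genes with at least 100 UMIs. For *DNAJA1* the gap was very narrow, with 0.715 in the positive cells of cow 1 against 0.713 in the negative cells of cow 3.

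*HSPA5* stood at 3.39, 2.55 and 1.44 UMIs per 10000 in the *FOSB*-positive cells of cows 1, 2 and 3, and at 1.13, 1.15 and 0.761 in their *FOSB*-negative cells. Each positive value was above all 3 negative ones, and the log2 fold change was 1.26 ± 0.11 (SE, n = 3 cows, edgeR adjusted p = 2.7e-04). *CRYAB* stood at 2.07, 1.29 and 1.00 in positive cells and at 0.782, 0.636 and 0.455 in negative cells. The states again did not overlap, with a log2 fold change of 1.23 ± 0.08 (SE, n = 3, edgeR adjusted p = 4.6e-05).

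*DNAJB1* stood at 3.48, 2.28 and 1.73 in *FOSB*-positive and at 1.48, 1.52 and 0.873 in *FOSB*-negative cells, a log2 fold change of 0.98 ± 0.11 (SE). *BAG3* rose by 0.86 ± 0.09 (SE) on the log2 scale. *HSPA1A* stood at 17.1, 9.95 and 9.50 in positive and at 10.9, 8.05 and 6.48 in negative cells. Each cow was higher in its positive cells, but the negative cells of cow 1 lay above the positive cells of cows 2 and 3, and the log2 fold change was 0.55 ± 0.07 (SE, n = 3, edgeR adjusted p = 0.0036).

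The log2 fold change was 0.88 ± 0.14 (SE) for *HSPH1* and 0.64 ± 0.13 (SE) for *DNAJA1*, with edgeR adjusted p-values of 0.0099 and 0.033. These calls, and that of *HSPA1A*, were lost without cow 1, where the genes called higher among all tested also fell from 335 to 91. Without cow 1, the log2 fold changes were 0.61 for *HSPH1*, 0.59 for *DNAJA1* and 0.47 for *HSPA1A*, with edgeR adjusted p-values of 0.064, 0.38 and 0.11, and 4 genes stayed called. *DNAJA1* was also not called by DESeq2 (adjusted p = 0.17). With cells thinned to equal depth the log2 fold changes fell to 0.52 for *HSPH1*, 0.35 for *HSPA1A* and 0.49 for *BAG3*, and 7 genes were called.

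The 3 genes not called with *FOSB* were *HSPA8*, *HSP90AA1* and *HSPB1*. *HSPA8* had a log2 fold change of 0.42 ± 0.12 (SE, edgeR adjusted p = 0.097), with 6.24 against 3.96 in cow 1, 4.89 against 3.41 in cow 2 and 5.46 against 5.69 in cow 3. *HSP90AA1* stood at 9.94, 9.73 and 8.65 in positive and at 6.80, 7.61 and 8.70 in negative cells. Both genes were thus higher in the positive cells of cows 1 and 2 and slightly lower in those of cow 3. Both were called without cow 3, with log2 fold changes of 0.63 for *HSPA8* and 0.50 for *HSP90AA1*, and also without cow 2, with 0.36 and 0.33. Without cow 1 they were 0.27 and 0.22, with edgeR adjusted p-values of 0.60 and 0.56. With the other 3 markers in the model, both were called (0.34 and 0.30). Both were also called with no filter on low counts (0.42 and 0.35). In each case 9 of the 10 genes were called. The fit with all 4 markers took 46 sums from 3 cows as separate samples, so its p-values do not measure the spread between cows. Over all settings the log2 fold change ran from 0.22 to 0.63 for *HSPA8* and from 0.22 to 0.50 for *HSP90AA1*.

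**Figure D3:**
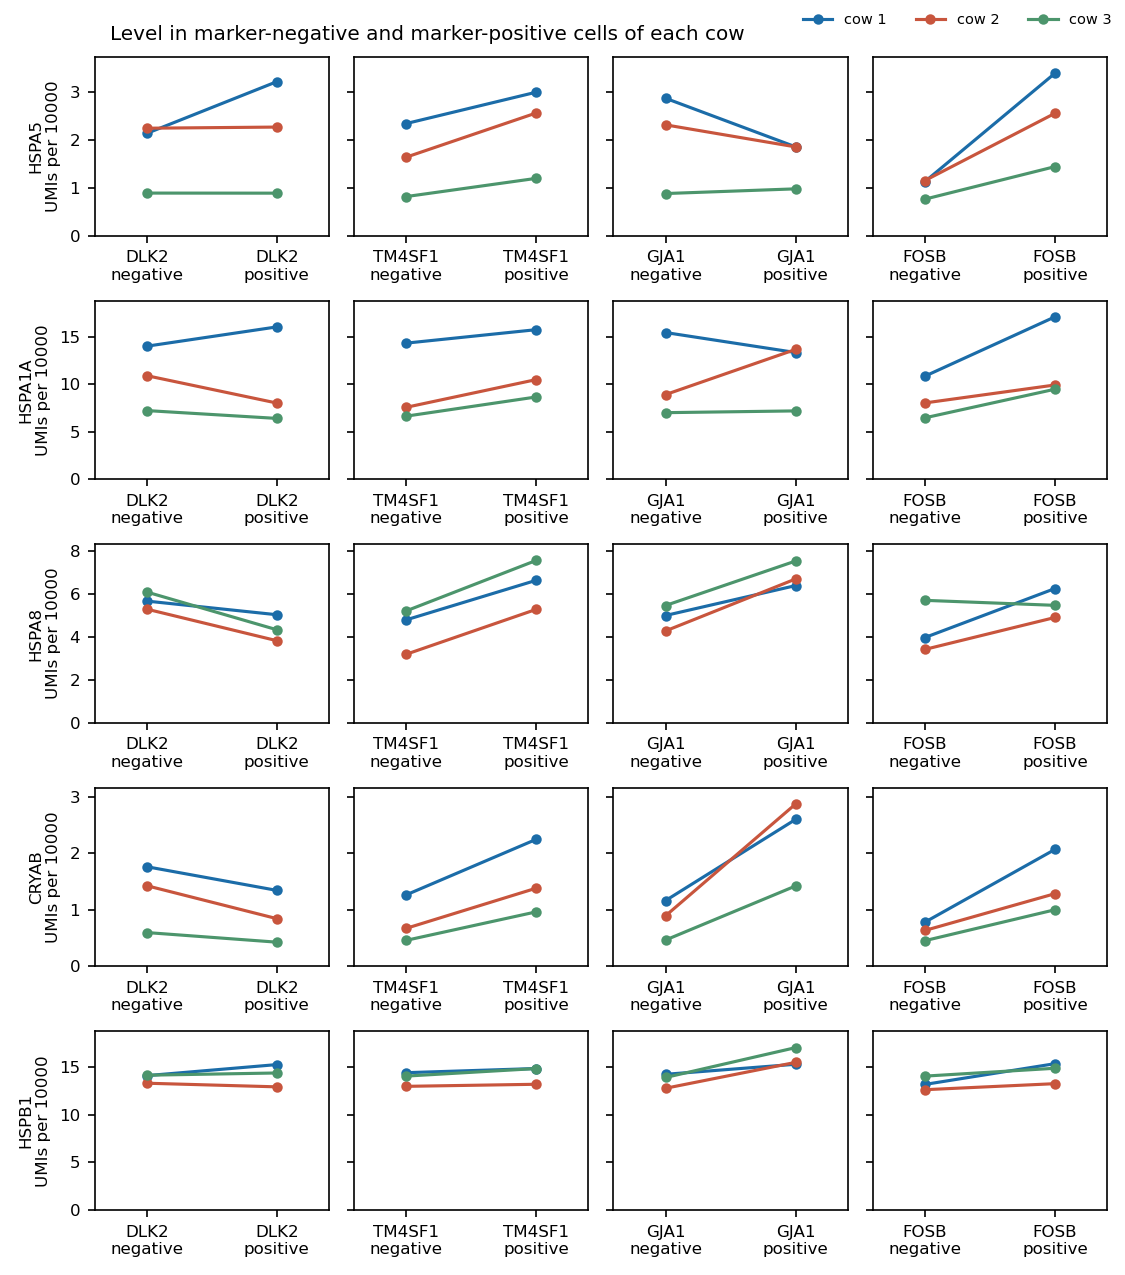
Levels of *HSPA5*, *HSPA1A*, *HSPA8*, *CRYAB* and *HSPB1* as UMIs per 10000 in marker-negative and marker-positive cells, with 1 line per cow and 1 column per marker. *HSPA5* rises in all 3 cows with *FOSB* but falls in cows 1 and 2 with *GJA1*, whereas *CRYAB* rises in all 3 cows with *TM4SF1*, *GJA1* and *FOSB* and falls in all 3 with *DLK2*.

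Over all cells, *HSPA5* was also the gene of the set that went up at each step of the *FOSB* count in all 3 cows. Cells were thinned to 5000 UMIs each, which left out 586, 228 and 704 shallower cells of cows 1, 2 and 3, and were grouped by 0, 1, 2 or at least 3 UMIs of *FOSB*. *HSPA5* stood at 1.34, 2.76, 3.98 and 6.45 UMIs per 10000 over the 4 groups in cow 1, at 1.51, 2.23, 2.88 and 3.46 in cow 2 and at 0.79, 1.26, 1.61 and 2.39 in cow 3. The mean over cows went from 1.21 ± 0.38 (SD) to 4.10 ± 2.11 (SD). In cow 3 the first group held 8085 cells and the last 144. Within *DLK2*-negative cells *HSPA5* also went up at each step in 3 cows. Within *DLK2*-positive cells it did so in 2 cows, with 1.87 and then 1.85 in cow 3, while *HSP90AA1* did so in 3.

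*CRYAB* levelled off in cows 1 and 2, with 0.98, 1.77, 2.27 and 2.11 in cow 1, and went up at each step in cow 3, from 0.43 to 1.69. *HSPA1A* went from 12.7 to 19.6 in cow 1, while in cow 2 it stayed between 8.25 and 9.67 and in cow 3 between 6.73 and 9.31. *HSPA8*, *HSP90AA1*, *DNAJB1* and *HSPB1* went up at each step in 2 of 3 cows, and the other genes in 1. No test was made over the steps.

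**Figure D4:**
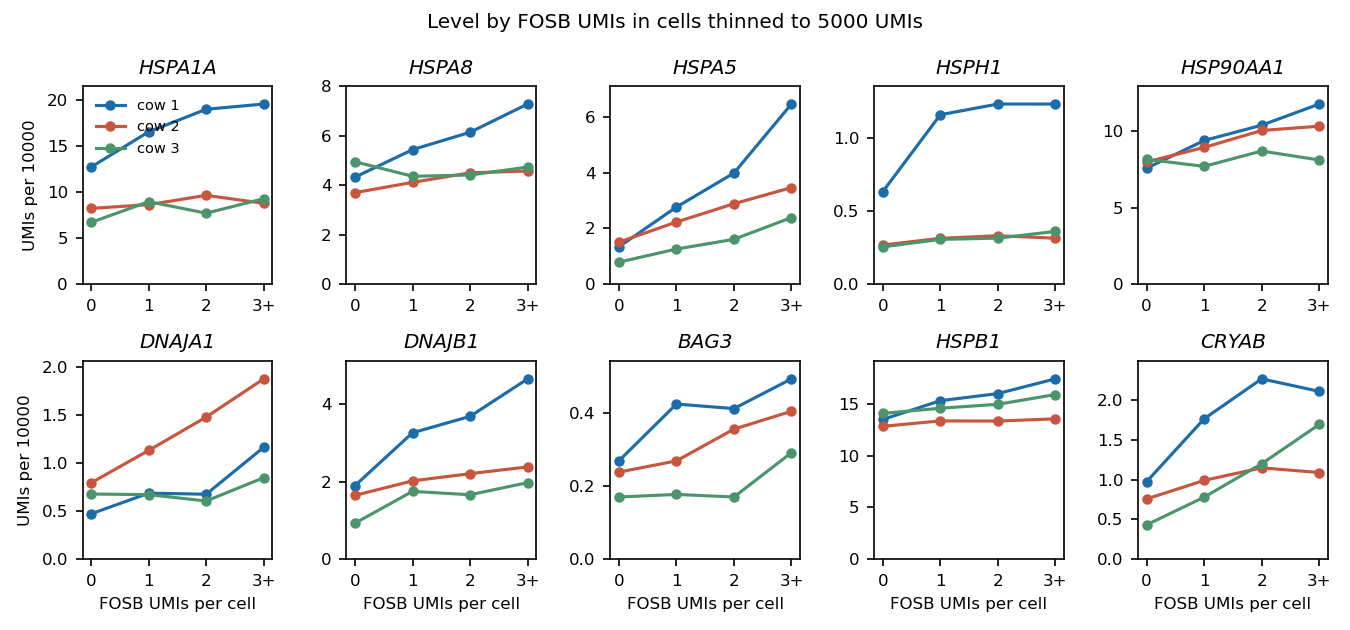
Level of each gene as UMIs per 10000 in cells with 0, 1, 2 or at least 3 UMIs of *FOSB*, after every cell was thinned to 5000 UMIs, with 1 line per cow. *HSPA5* goes up at each step in all 3 cows, and the line of cow 1 is the steepest for *HSPA1A*, *HSPA5* and *HSPH1*.

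Of 74 other genes tested in lists of chaperones, their partners and their regulators, 7 were called higher in *FOSB*-positive cells and none lower. Of all genes tested, 2.96% were called higher and 0.779% lower. The 74 belonged to 8 lists with 78 genes, and some, such as *ATF4* and *HSF1*, do not encode chaperones. The called genes were *HSPA1L*, an HSP70 gene related to *HSPA1A* (log2 fold change 1.02), the J-domain genes *DNAJA4* (1.03) and *DNAJB4* (0.80), the small heat shock gene *HSPB8* (0.49), and 3 of 15 genes of the unfolded protein response. These 3 were *DDIT3*, which encodes the stress factor CHOP (1.17 ± 0.06, SE), the membrane protein gene *HERPUD1* (0.57) and the transcription factor gene *ATF4* (0.37). The other 12 genes of that list were not called, and the median log2 fold change of its 15 genes was 0.12.

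No gene was called with *FOSB* among the 11 genes of HSP90 and its co-chaperones and the 10 chaperonin genes. None was called either among the 7 tested genes of the BAG family and nucleotide exchange and the 4 genes of the heat shock factor list. That list held the factors *HSF1*, *HSF2* and *HSF4* and the binding protein gene *HSBP1*. The median log2 fold changes of these lists, in the order given, were 0.01, -0.00, 0.01 and 0.02. With 2.96% of all genes tested called higher and 0.779% lower, few calls would fall in lists of this length. Among 15 other immediate-early genes 14 were called higher, with a median log2 fold change of 1.76 and the largest, 2.49 ± 0.31 (SE), for *ATF3*. Their part in the differences of the chaperone genes was not tested. *FOSB*-positive cells had medians of 10852, 12596.5 and 9402.5 UMIs per cell in cows 1, 2 and 3, against 9467, 10476 and 9815.5 in *FOSB*-negative cells.

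*TM4SF1*-positive cells had more transcripts of 9 of the 10 genes, and only *HSPB1* was not called. Of all 11606 genes tested, 9.28% were called higher and 7.16% lower. The median log2 fold change of the 10 genes was 0.55, against -0.00 over all genes tested. Each of the 10 genes was higher in the positive cells of 3 of 3 cows, and 9 genes stayed called without any 1 of the cows. The median mitochondrial share was higher in *TM4SF1*-positive cells of each cow, with 18.7%, 11.3% and 12.5% against 16.7%, 9.91% and 12.4%, and its part in the result was not tested.

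*CRYAB* stood at 2.25, 1.38 and 0.965 UMIs per 10000 in *TM4SF1*-positive and at 1.26, 0.673 and 0.461 in *TM4SF1*-negative cells of cows 1, 2 and 3. The difference was seen within each cow, although the positive cells of cow 3 lay below the negative cells of cow 1, and the log2 fold change was 1.03 ± 0.05 (SE, n = 3, edgeR adjusted p = 5.8e-11). *BAG3* stood at 0.509, 0.405 and 0.256 against 0.277, 0.195 and 0.162, a log2 fold change of 0.92 ± 0.07 (SE). *HSPH1* stood at 1.31, 0.396 and 0.387 against 0.731, 0.219 and 0.260, a log2 fold change of 0.81 ± 0.06 (SE).

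*HSPA8* stood at 6.62, 5.27 and 7.54 in *TM4SF1*-positive and at 4.78, 3.18 and 5.20 in *TM4SF1*-negative cells, a log2 fold change of 0.63 ± 0.05 (SE). *HSP90AA1* stood at 9.91, 10.02 and 10.19 against 8.22, 7.80 and 8.33. These were the 2 genes of the set whose states did not overlap over the cows, against 5.5% of the genes with at least 100 UMIs. *HSP90AA1* had a small log2 fold change of 0.36 ± 0.04 (SE), which lies just under the stricter threshold of 0.36.

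The log2 fold changes of *HSPA5*, *DNAJB1*, *DNAJA1* and *HSPA1A* were 0.57, 0.52, 0.42 and 0.38. *HSPB1* had 14.9, 13.2 and 14.9 against 14.4, 13.0 and 14.1, with a log2 fold change of 0.10 ± 0.04 (SE, edgeR adjusted p = 0.095). *TM4SF1*-positive cells were more often *FOSB*-positive, as given above. In 1 fit over all combinations of the 4 markers, 9 genes were still called with *TM4SF1*. The log2 fold change there fell to 0.56 for *CRYAB* and to 0.54 for *HSPH1*. This fit took several sums of each cow as separate samples, so its calls do not measure the spread between cows.

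Of the 74 other genes of these lists, 18 were called higher with *TM4SF1* and 1 lower, against 9.28% higher and 7.16% lower of all genes tested. *HSPA1L* had the largest log2 fold change, 1.20 ± 0.13 (SE), followed by *DNAJA4* with 0.95 ± 0.11 (SE). *CRELD2*, a protein of the unfolded protein response, had 0.79. *STIP1*, which passes clients from HSP70 to HSP90, had 0.31, *HSPB8* had 0.36, and the mitochondrial chaperonin partner *HSPE1* had 0.32. *HSPA13*, an HSP70 gene of the endoplasmic reticulum, was the 1 gene called lower, at -0.34. Of the 15 immediate-early genes 9 were called higher, with *FOSL1*, an AP-1 subunit, at 1.27.

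*GJA1*-positive cells had more *CRYAB*, *HSPH1*, *BAG3*, *HSPA8* and *HSPB1*, whereas *HSPA5*, *DNAJA1*, *DNAJB1*, *HSP90AA1* and *HSPA1A* were not called. The 5 called genes of 10 stand against 19.6% of 11075 genes called higher and 19.2% called lower. The median log2 fold change of the 10 genes was 0.29, against -0.02 over all genes tested.

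*CRYAB* stood at 2.60, 2.87 and 1.42 UMIs per 10000 in *GJA1*-positive and at 1.16, 0.894 and 0.466 in *GJA1*-negative cells. No value of the positive cells fell among those of the negative cells, and the log2 fold change of 1.58 ± 0.09 (SE, n = 3, edgeR adjusted p = 9.5e-07) was the largest of the 10 genes over the 4 markers. *HSPB1*, the other small heat shock gene of the set, stood at 15.3, 15.5 and 17.1 against 14.3, 12.8 and 13.9. Its states did not overlap either, with a log2 fold change of 0.33 ± 0.06 (SE, edgeR adjusted p = 0.0014), which is under the stricter threshold of 0.36. The log2 differences of its levels were smaller, with 0.10, 0.28 and 0.29 in cows 1, 2 and 3. The call of *HSPB1* was made on the TMM scale of the fit.

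*HSPA8* stood at 6.37, 6.68 and 7.51 against 4.98, 4.27 and 5.45, without overlap, a log2 fold change of 0.59 ± 0.06 (SE). The genes without overlap were thus 3 of 10, against 21.0% of the genes with at least 100 UMIs, so that this count was near the background. *HSPH1* rose by 0.88 ± 0.10 (SE) and *BAG3* by 0.83 ± 0.09 (SE) on the log2 scale, in 3 of 3 cows.

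*HSPA5* stood at 1.85, 1.85 and 0.977 in *GJA1*-positive and at 2.87, 2.31 and 0.878 in *GJA1*-negative cells, lower in cows 1 and 2 and higher in cow 3. Its log2 fold change was -0.17 ± 0.12 (SE, edgeR adjusted p = 0.27), and that of *DNAJA1* was -0.11 ± 0.11 (SE, adjusted p = 0.45). Both values moved with the cow left out. Without cow 3 both were called lower, with -0.39 for *HSPA5* and -0.32 for *DNAJA1*. Without cow 1 they were -0.011 and -0.017, without cow 2 they were -0.11 and 0.0023, and neither was called. *HSPA1A* stood at 13.4, 13.7 and 7.21 against 15.5, 8.93 and 7.03. It had a log2 fold change of 0.25 ± 0.11 (SE, edgeR adjusted p = 0.0998), which was called without cow 1 (0.41), without cow 3 (0.29) and in thinned cells (0.30). It was not called without cow 2 (0.049, edgeR adjusted p = 0.65) or with the other 3 markers in the model (0.082, adjusted p = 0.27). *DNAJB1*, at 0.22 (edgeR adjusted p = 0.042), missed only the threshold of 0.25 on the log2 fold change. It was called without cow 1 (0.33) and with at least 2 UMIs of *GJA1* for a positive cell (0.30). It was 0.15 without cow 2 (edgeR adjusted p = 0.23) and 0.039 with the other 3 markers in the model (adjusted p = 0.67).

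Of the 74 other genes of these lists, 23 were called higher with *GJA1* and 8 lower, against 19.6% higher and 19.2% lower of all genes tested. *HSPA1L* had 1.51 ± 0.15 (SE) and *DNAJA4* 1.14 ± 0.14 (SE) on the log2 scale. *HSPE1* had 0.79, *BAG1*, a nucleotide exchange factor of HSP70, 0.64, *STIP1* 0.38 and *HSPB8* 0.37. *HSF1*, the main activator of heat shock genes, had a log2 fold change of 0.38 ± 0.07 (SE). It was the 1 gene called of the 4 in the heat shock factor list. Of the 15 genes of the unfolded protein response, 3 were called higher and 2 lower, with *SDF2L1*, a partner of *HSPA5*, at 0.87 and the disulfide isomerase gene *PDIA4* at -0.54, while 10 were not called. *HSPA13*, *SUGT1*, *DNAJB12*, *BAG4* and *CCT4* led the genes called lower in their lists, with -0.73, -0.35, -0.34, -0.33 and -0.25.

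Most immediate-early genes were lower in the same cells. Of 15 genes 11 were called lower in *GJA1*-positive cells, with a median log2 fold change of -0.59 and *JUNB*, an AP-1 subunit, at -1.13 ± 0.12 (SE). *NR4A1*, a nuclear receptor gene, was the 1 gene called higher, with 0.49. *FOSB* itself was found in 53.7%, 75.5% and 17.5% of the *GJA1*-positive cells and in 61.5%, 75.1% and 19.1% of the *GJA1*-negative cells of cows 1, 2 and 3. The median mitochondrial share was higher in *GJA1*-positive cells of each cow, with 22.1%, 13.8% and 14.4% against 15.7%, 10.6% and 12.3%, and its part in the result was not tested.

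*DLK2*-positive cells had fewer transcripts of *CRYAB*, *HSPA8*, *HSPH1* and *BAG3*. None of the 10 genes was called higher. Of all 11852 genes tested, 11.6% were called lower and 9.23% higher. The median log2 fold change of the 10 genes was -0.17, against 0.01 over all genes tested. The median mitochondrial share was lower in *DLK2*-positive cells of each cow, with 13.1%, 10.1% and 11.6% against 20.0%, 11.5% and 12.6% in cows 1, 2 and 3, and its part in the result was not tested.

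*CRYAB* stood at 1.34, 0.845 and 0.429 UMIs per 10000 in *DLK2*-positive and at 1.76, 1.43 and 0.599 in *DLK2*-negative cells of cows 1, 2 and 3. It was lower in the positive cells of each cow, with a log2 fold change of -0.60 ± 0.07 (SE, n = 3, edgeR adjusted p = 6.1e-05). *HSPA8* stood at 5.02, 3.81 and 4.32 against 5.65, 5.28 and 6.07, and was the 1 gene of the set whose states did not overlap. That count was near the background of 7.96% of the genes with at least 100 UMIs. Its log2 fold change was -0.43 ± 0.06 (SE, edgeR adjusted p = 3.6e-04).

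*HSPH1* stood at 0.773, 0.271 and 0.271 against 1.03, 0.399 and 0.289, with a log2 fold change of -0.42 ± 0.08 (SE). *BAG3* stood at 0.338, 0.263 and 0.163 against 0.367, 0.402 and 0.186, with -0.39 ± 0.09 (SE). Cow 2 had the largest gap for *BAG3*, and without that cow the value was -0.18 (edgeR adjusted p = 0.17). With the other 3 markers in the fit, *CRYAB* (-0.33) and *HSPA8* (-0.30) were still called, while *HSPH1* (-0.23) and *BAG3* (-0.19) were not. As above, the calls of that fit do not measure the spread between cows.

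*HSPA5* stood at 3.21, 2.27 and 0.887 in *DLK2*-positive and at 2.13, 2.24 and 0.888 in *DLK2*-negative cells, so that it differed in cow 1 and hardly in the others. Its log2 fold change was 0.15 ± 0.09 (SE, edgeR adjusted p = 0.25). It was called higher without cow 2 (0.27) and in thinned cells (0.26), and had the opposite sign without cow 1 (-0.03). *HSPA1A* had -0.19 ± 0.09 (SE, adjusted p = 0.15) and was called lower without cow 1 (-0.34), while it was -0.022 without cow 2 (edgeR adjusted p = 0.90). The log2 fold changes of *HSP90AA1*, *DNAJA1*, *DNAJB1* and *HSPB1* were between -0.15 and -0.02.

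Of the 74 other genes of these lists, 9 were called lower with *DLK2* and 1 higher. Of all genes tested, 11.6% were called lower and 9.23% higher, so that the lower calls were near the background. *HSPA1L* had -0.79 ± 0.13 (SE), *DNAJA4* -0.58, *CRELD2* -0.64, *BAG1* -0.47 and *HSPE1* -0.41 on the log2 scale. The 1 gene called higher was *BAG4*, at 0.27. Most immediate-early genes were higher in these cells, with 11 of 15 called, a median log2 fold change of 0.37 and *FOS*, a partner of JUN in AP-1, at 0.58 ± 0.09 (SE). *FOSB* was found in 66.7%, 74.5% and 20.9% of *DLK2*-positive and in 54.7%, 75.9% and 18.3% of *DLK2*-negative cells.

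The 4 comparisons share the same cells, so their values stand side by side and were not tested against each other. *CRYAB* had -0.60 with *DLK2*, 1.03 with *TM4SF1*, 1.58 with *GJA1* and 1.23 with *FOSB*. *HSPA5* had 0.15, 0.57, -0.17 and 1.26 in the same order. *HSPB1* had -0.02, 0.10, 0.33 and 0.17.

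Whether the difference with *FOSB* was of the same size in *DLK2*-positive and *DLK2*-negative cells was tested as an interaction over 12 sums. No gene of 11035 was called by the edgeR quasi-likelihood test, with 265 genes at an unadjusted p under 0.05, and DESeq2 called 0 with 119 such genes. The smallest unadjusted p among the 10 genes was 0.22. The difference of the log2 fold changes ran from -0.25 ± 0.24 (SE) for *HSPH1* to 0.16 ± 0.20 (SE) for *DNAJA1*, and was 0.11 ± 0.17 (SE) for *HSPA5* and -0.01 ± 0.15 (SE) for *CRYAB*. Differences of the size of these standard errors, and some larger ones, could not be told from 0 with 3 cows.

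The 4 markers make 16 combinations, of which 14 had at least 10 cells in each cow. The ranks are among these 14 combinations. Cells with *TM4SF1*, *GJA1* and *FOSB* but without *DLK2* had the highest mean of 8 of the 10 genes. They were 524 cells, 2.53% of all, with 51 to 317 cells per cow. Their *CRYAB* stood at 3.63, 3.73 and 4.62 UMIs per 10000 in cows 1, 2 and 3, against 0.438, 0.489 and 0.299 in the 2835 cells with *DLK2* as the only marker, where *CRYAB* was lowest. The ratio of the means was 9.77. Of the 8 genes, *HSP90AA1*, *HSPH1*, *DNAJB1* and *HSPB1* led the next of the 14 combinations by less than the SD. For *HSP90AA1* the values were 10.5 ± 0.8 and 10.4 ± 0.8 (SD). In cow 1, *HSPA1A*, *HSP90AA1*, *DNAJB1* and *HSPB1* were higher in another of the 14 combinations. *HSPA1A* of that cow stood at 16.6 in the leading combination, against 18.1 in cells with *DLK2* and *FOSB* only. In cow 3, *HSP90AA1* had 10.0 against 11.4 in cells with *TM4SF1* only, and *HSPH1* 0.847 against 0.871 in cells with *GJA1* and *FOSB* only. Cells with all 4 markers reached 10 cells in cows 1 and 2 only and were left out of the ranks. In cows 1 and 2 these 147 cells had 1.84 and 0.642 of *HSPH1* and 4.05 and 2.64 of *DNAJB1*, against 1.70 and 0.786 of *HSPH1* and 3.35 and 3.14 of *DNAJB1* in the cells with *TM4SF1*, *GJA1* and *FOSB* but without *DLK2*, so that both genes were higher in cow 1 and lower in cow 2.

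*BAG3* in the cells with *TM4SF1*, *GJA1* and *FOSB* was 0.772 ± 0.068 (SD, n = 3), and the next of the 14 combinations, without *GJA1*, had 0.404 ± 0.124 (SD). The cells with all 4 markers had 0.710 and 0.599 in cows 1 and 2, against 0.713 and 0.756 in the first of these and 0.514 and 0.428 in the second. *HSPA1A* was 15.3 ± 1.9 (SD) in the cells with *TM4SF1*, *GJA1* and *FOSB* and 12.9 ± 3.4 (SD) in those without *GJA1*, which is within the spread of the cows. *HSPA8* was 8.59 ± 1.16 (SD) and its next combination of the 14 had 6.75 ± 1.69 (SD), in the cells with *GJA1* and *FOSB* only. In cows 1 and 2 the cells with all 4 markers had 7.32 and 6.27 of *HSPA8*, against 6.79 and 5.04 in those with *GJA1* and *FOSB* only. *HSPA5* had its highest mean, 2.97 ± 1.51 (SD), in cells with *DLK2*, *TM4SF1* and *FOSB*, followed among the 14 by cells with *TM4SF1* and *FOSB* at 2.76 ± 1.05 (SD), which differed by less than the SD. Its lowest mean among them was 0.843 ± 0.112 (SD), in the 5768 cells without any of the markers. *DNAJA1* was highest in cells with *TM4SF1* and *FOSB*, at 1.04 ± 0.33 (SD). Next among the 14 were cells with *DLK2*, *TM4SF1* and *FOSB* at 0.96 ± 0.38 (SD), which differed by less than the SD. The cells with *TM4SF1*, *GJA1* and *FOSB* but no *DLK2* also had, cow by cow, the deepest medians of the groups named here, with 15283 to 20235.5 UMIs per cell, and the part of depth in this order was not tested.

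**Figure D5:**
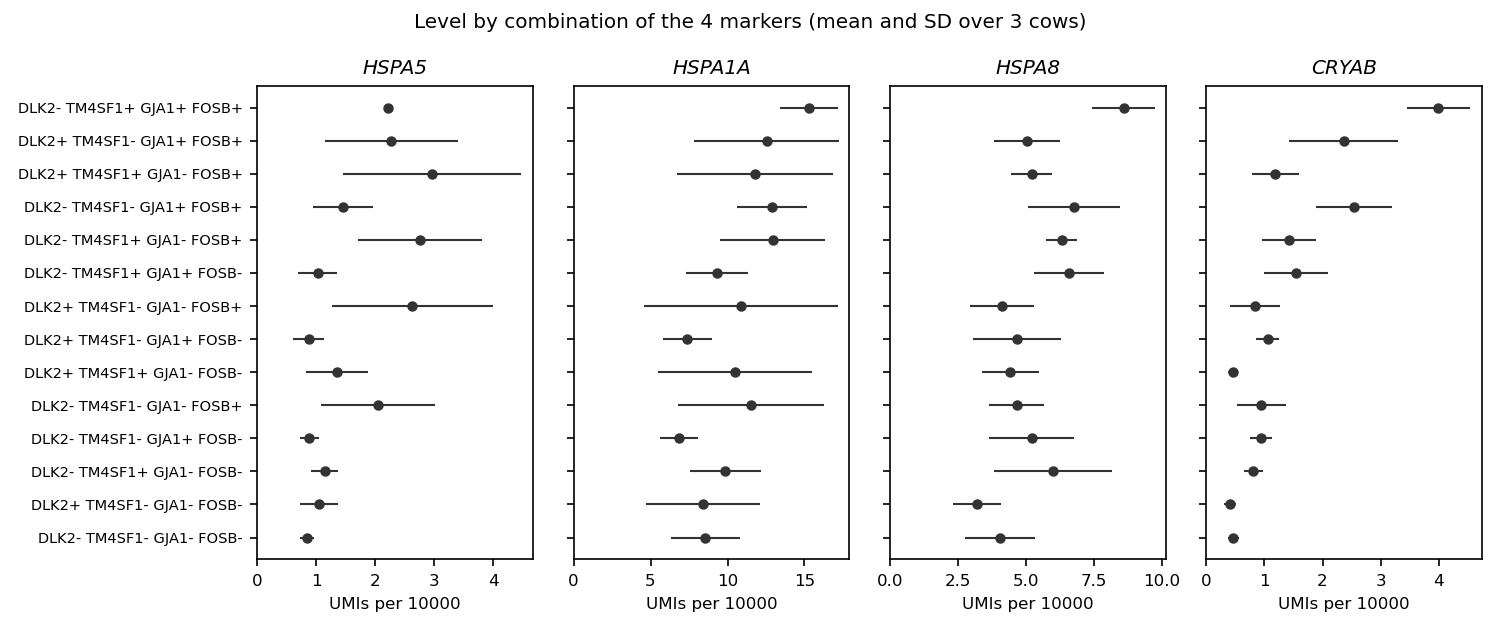
Mean level of *HSPA5*, *HSPA1A*, *HSPA8* and *CRYAB* as UMIs per 10000 in the 14 combinations of the 4 markers found in all 3 cows, with bars for the SD over cows. *CRYAB* is highest in cells with *TM4SF1*, *GJA1* and *FOSB* (3.99 ± 0.54, SD). The mean of *HSPA5* is at or above 1.45 in all combinations with *FOSB* and at or below 1.36 in all without it. Single cows cross these values, such as 0.96 in cow 2 with *GJA1* and *FOSB* and 1.73 in cow 1 with *DLK2* and *TM4SF1*.

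The genes were also compared by their pattern over 46 sums of cow and combination, after the mean of each cow was taken out. These correlations are descriptions, since the sums share cows, libraries and depth. *HSPH1* went most with *HSPA8* and *BAG3* (r = 0.86 for both), and *HSPA1A* with *DNAJB1* (r = 0.89). *HSPA5* also went with *DNAJB1* (r = 0.86) and with *DNAJA1* (r = 0.81), but less with *HSPA8* (r = 0.38). *DNAJA1* and *HSPB1* had the weakest relation, with r = 0.23.

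Among the 10111 genes compared, those with patterns most like *HSPA5* were *TOB1* (r = 0.93) and *IER2* (r = 0.91), an antiproliferative gene and an immediate-early gene. The phosphatase gene *DUSP1* (r = 0.92) and the ubiquitin gene *UBB* (r = 0.90) were nearest to *DNAJB1*, and *ARF2* (r = 0.84) and *UBB* (r = 0.82) to *HSPA1A*. *CLDN4*, a claudin of tight junctions, was nearest to *CRYAB* (r = 0.80), followed by *DNAJA4* (r = 0.78), which was also nearest to *HSPH1* (r = 0.82) before *TCIM* (r = 0.79). *CFL1*, the gene of cofilin, was among the nearest to *HSPA8* (r = 0.88). The nearest were *ACTB* and *ARF2* (r = 0.80 for both) to *HSP90AA1*, *TUBB4B* (r = 0.85) and *HERPUD1* (r = 0.83) to *DNAJA1*, *ARF2* (r = 0.82) and *ACTB* (r = 0.81) to *BAG3*, and *ACAA2* (r = 0.83) and *LAMP1* (r = 0.81) to *HSPB1*.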

How the data were processed

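Ventral rumen epithelium of 3 cows was measured by droplet single-cell RNA sequencing. The authors mapped reads with Cell Ranger 3.1.0 to the cattle build ARS-UCD1.2, removed doublets with DoubletFinder, filtered cells, kept epithelial cells and deposited UMI counts per gene and cell. They also deposited natural log values, which equalled ln of 1 plus counts scaled to 10000 per cell within 1e-06 and were used for that check and for gene names. The barcode suffix was taken as the cow number, and 0 columns were left unused. The members and gene lists were chosen with earlier results of these data known.

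Counts were summed per cow and state and tested with edgeR 4.0.16 in R 4.3.3 (TMM, filterByExpr, quasi-likelihood test, cow as a block), after tests on simulated data. Both sums of a cow come from 1 animal, and after group means were taken out same-cow sums correlated by at least 0.67. Levels, figures and thinning used Python 3.11.15. Alternatives were DESeq2 1.42.0, all genes kept without a filter, leaving out each cow, no block, at least 2 UMIs for a positive cell, cells thinned to 5000 UMIs, cells under 2% mitochondrial UMIs left out (270 cells), a log2 threshold of 0.36, and the other 3 markers in 1 fit over 46 sums. Named genes were the 10 members, the 4 markers, the called gene with the largest change in each direction in each list and comparison, and the 2 genes most like each member, of which 1 is not reported here. *DNAJB4*, *HERPUD1* and *ATF4* (called with *FOSB*) were chosen after their values were seen. Depth per cow limits counting error only, and precision rests on 3 cows. The fit over 46 sums took several sums of each cow as separate samples, so its p-values do not measure the spread between cows. No genome of the authors' build was used here, so positions and sequences are not given.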

Additional observations from a re-analysis of the deposited data

How the results depend on the processing

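The comparisons rest on the cow as a term: with no replicate block, 0 of the 10 genes were called with any marker, and the calls over all genes were 0 higher and 4 lower with *DLK2*, 0 and 0 with *TM4SF1*, 203 and 152 with *GJA1*, and 0 and 0 with *FOSB*. The pairing joins sums of the same animal and library, which cannot be told apart here. With cells thinned to 5000 UMIs, the calls over all genes were 421 higher and 125 lower with *TM4SF1*, 1430 and 1278 with *GJA1*, and 272 lower with *FOSB*, and 1 of the 10 genes was higher with *DLK2*. With the other 3 markers in the model there were 602 and 447 with *TM4SF1*, 608 and 308 with *FOSB*, and 2 of the 10 genes lower with *DLK2*. The log2 threshold of 0.36 left 685 and 513 with *TM4SF1*, and DESeq2 gave 467 lower there. With no filter on low counts there were 627 higher and 290 lower with *FOSB*, and 4 and 5 in the interaction.

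Leaving out 1 cow at a time, the genes of the set called with *FOSB* numbered 4 to 9, those called higher with *DLK2* 0 to 1, and those called lower with *GJA1* 0 to 2. Over all genes, 91 to 732 were higher and 1 to 419 lower with *FOSB*.

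The sign changed only for differences of the 10 genes that were not called. Leaving out 1 cow, the log2 fold change ran with *DLK2* from -0.028 to 0.27 for *HSPA5*, -0.14 to 0.031 for *DNAJA1*, -0.18 to 0.11 for *DNAJB1* and -0.042 to 0.037 for *HSPB1*, and with *GJA1* from -0.32 to 0.0023 for *DNAJA1*. In the interaction it ran from -0.025 to 0.31 for *HSPA5*, -0.041 to 0.066 for *HSP90AA1*, -0.032 to 0.030 for *HSPB1* and -0.11 to 0.080 for *CRYAB*. The other sign changes were *DNAJA1* with *DLK2* in thinned cells (0.0066) and, in the interaction, *HSPA5* (-0.031) and *HSP90AA1* (-0.012) with at least 2 UMIs for a positive cell, *HSP90AA1* (-0.0047) and *HSPB1* (0.013) in thinned cells, and *CRYAB* by DESeq2 (0.0035) and with no replicate block (0.037). The cause was not tested. Levels near 0.3 UMIs per 10000, as for *BAG3*, rest on few UMIs per cell.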
